A study of Mus musculus with 20 samples.

Results

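Imprinted growth genes were followed in whole mouse kidney at 47 weeks and at 7 weeks of age, called old and young here. They were a list of 10 genes, Igf2, H19, Dlk1, Meg3, Peg3, Mest, Plagl1, Cdkn1c, Grb10 and Igf2r, matched by gene symbol. Of these, 9 had a row among the 19940 genes of the table, and Igf2 was not analysed here. The test across all genes covered 7 of them, because H19 and Dlk1 were below the low-value filter that left 14630 genes. RNA came from kidneys of male mice in 4 groups of 5 libraries: G3 Tert-/- old, G3 Tert-/- young, Tert+/+ old and Tert+/+ young. Tert encodes the reverse transcriptase of telomerase, G3 stands for generation 3 in the labels, and mice bred without Tert have shortened telomeres. The labels of these samples name no treatment and no Cre or transgene. For the listed genes the design asks what differs between the ages in each genotype, and between the genotypes at each age.

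An imprinted gene is read mainly from the copy inherited from one parent, and DNA methylation set in the egg or sperm marks which parent a copy came from. Many imprinted genes act on growth: those read from the paternal copy tend to promote it, and those read from the maternal copy tend to restrain it. In mice, a network of these genes is high in growing organs around birth and is turned down as growth slows. Igf2, Dlk1, Peg3, Mest and Plagl1 are read from the paternal copy, and H19, Meg3, Cdkn1c, Grb10 and Igf2r from the maternal copy. The counts used here do not separate the parental copies.

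Libraries held 7161690 to 9757594 reads assigned to genes, so that 0 reads allow up to 3 reads, or 2.49 to 3.38 normalized counts (counting error only). A normalized count is a gene's reads divided by 1 factor per library, with no correction for gene length, so levels were not compared between genes. All 12 proximal tubule markers were in the table, and their sum was 158960 to 430800 normalized counts per library. Tert+/+ young replicate 1 and Tert+/+ old replicate 4 stood apart on the first principal component, at 67.5 and 56.6, against -39.4 to 21 for the other libraries. Tert+/+ young replicate 5 had 460 normalized counts of Star, which acts in steroid synthesis in the adrenal cortex, against 3.22 to 20.8 in the other 19 libraries. Tert had 5.11 to 8.31 normalized counts in G3 Tert-/- old, 0.979 to 5.65 in G3 Tert-/- young, 7.25 to 16.9 in Tert+/+ old and 4.21 to 15.7 in Tert+/+ young kidneys. The sources used here do not say which part of Tert is deleted, so these overlapping values of 3′ reads do not check the genotype.

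Peg3 and Meg3 were the 2 members that passed the age test described next, and the sequences in front of their genes are shown for that reason. They are the 250 bases before the RefSeq start site (GRCm38.p6), written 5′ to 3′, with each CG dinucleotide, the place where DNA methylation is set, in capitals. The Peg3 sequence is chr7:6730420-6730669 on the minus strand, and the Meg3 sequence is chr12:109540746-109540995 on the plus strand.
Peg3: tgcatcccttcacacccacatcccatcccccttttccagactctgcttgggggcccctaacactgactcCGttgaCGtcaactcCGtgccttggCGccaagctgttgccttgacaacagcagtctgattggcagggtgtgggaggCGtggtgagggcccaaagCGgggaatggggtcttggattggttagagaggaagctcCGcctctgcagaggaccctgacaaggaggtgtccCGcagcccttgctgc
Meg3: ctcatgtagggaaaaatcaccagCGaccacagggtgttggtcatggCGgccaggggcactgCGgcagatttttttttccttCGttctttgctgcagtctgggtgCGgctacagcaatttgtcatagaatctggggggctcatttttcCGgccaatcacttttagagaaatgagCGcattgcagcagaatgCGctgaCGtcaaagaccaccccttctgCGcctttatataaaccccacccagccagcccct
The Peg3 sequence held 8 CG dinucleotides at a GC content of 60.4%, and 57.0% of 32851 mouse promoter sequences of the same length held fewer. Those sequences leave out 1 chromosome, which holds no listed member. The Meg3 sequence held 10 at a GC content of 52.4%, and 62.2% of promoters held fewer. A second RefSeq start of Meg3, at position 109545398, had 0 CG dinucleotides in its 250 bases, so the count depends on the start that is used. The median promoter held 6. The letters GGGGCCCC, bound by PLAGL1 and the same on both strands, began 201 bases before the Peg3 start and were not in this window of Meg3. They were in 0.889% of the searched promoters, and in none of the other entries of members. The letters GCCATNTT, bound by YY1, were searched on both strands and were in none of the 15 entries of the 8 members that have one, against 3.91% of the searched promoters. Among those entries, 1 of Grb10 was the densest, with 40 CG dinucleotides. Usp29, an imprinted neighbour read from the opposite strand, starts at position 6730578 of chromosome 7, inside the Peg3 window (GENCODE M21). Matches are a description of letters, and methylation and binding were not measured.

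Peg3 and Meg3 fell in old kidneys, and the other tested members did not pass. Averaged over the genotypes, Peg3 was 1.42-fold lower and Meg3 was 2.02-fold lower in old than in young kidneys (limma). Neither call held in every setting. Meg3 passed 10 of 20 times with each library left out, and neither gene passed without a pair of young libraries described below. The 2 of 7 tested members that passed compare with 4.49% of all tested genes that passed, and with 2.43% that passed in the lower direction. The members were chosen with earlier results of these data known, so this comparison is a description and not a test. All 7 estimates were negative with a median log2 fold change of -0.37, against 0.0049 over all tested genes.

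Within G3 Tert-/-, 0 of 7 members passed in limma, against 2.24% of all genes. There 6 of 7 estimates were negative, with a median of -0.52, and Peg3, Meg3 and Grb10 had an unadjusted p under 0.05, as had 14.9% of all genes. With edgeR and with DESeq2, 1 of 7 passed there, Peg3 in both. Within Tert+/+, 0 of 7 members passed in limma, against 0.649% of all genes, and 0 passed in edgeR and in DESeq2. There too 6 of 7 estimates were negative, with a median of -0.22, and Peg3 and Meg3 had an unadjusted p under 0.05, as had 10.6% of all genes. The old and young values of every member overlapped in each genotype. By comparison, 2.66% of all genes in G3 Tert-/- and 1.25% in Tert+/+ had every old kidney below every young one.

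**Figure D1:**
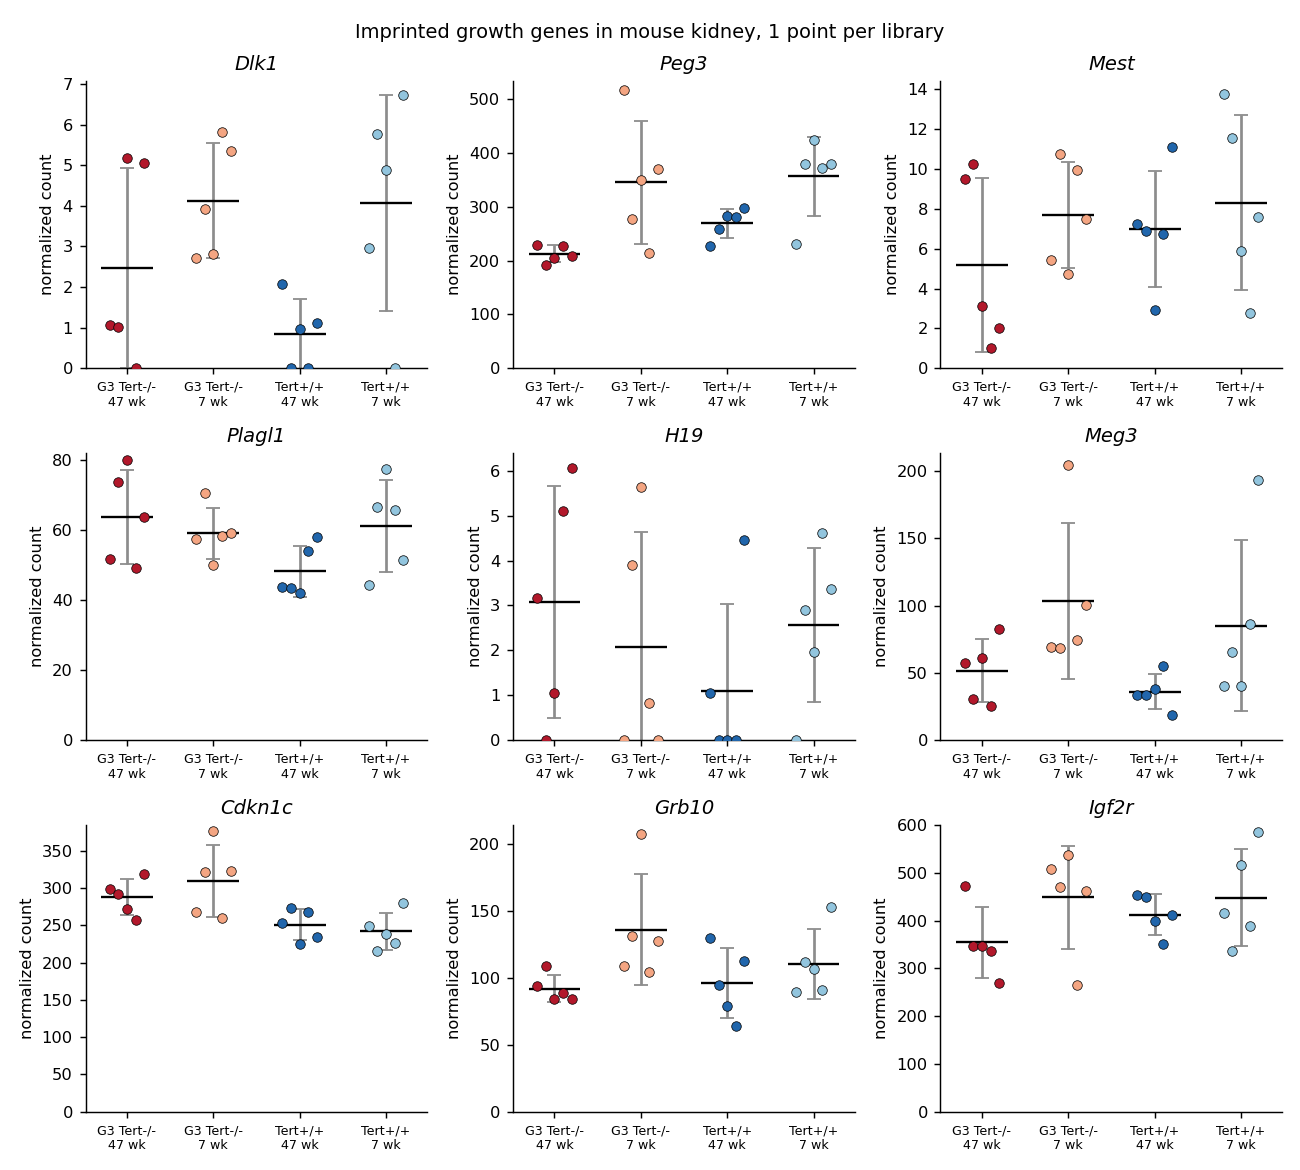
Normalized count (vertical axis, from 0) of the 9 imprinted growth genes in the table in each of the 4 groups (horizontal axis), with a point per library, a line at the mean and bars of 1 SD. Old Peg3 values end at 229 in G3 Tert-/- and 297 in Tert+/+, below 4 of 5 young values of the same genotype, while Cdkn1c values of old and young kidneys lie together.

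In whole kidney, fewer cells of a type and less RNA per cell cannot be told apart, and markers of other cell types moved with age. The 15 fibroblast and matrix markers summed to 2181 to 2739 normalized counts in G3 Tert-/- old kidneys, against 3945 to 6625 in G3 Tert-/- young kidneys. In Tert+/+ they summed to 2191 to 2696 in old kidneys, against 3593 to 4836 in young kidneys. The ages did not overlap in these sums, so their part in an age difference of a member cannot be told apart from age. Sparc made up the largest share of these sums, with means of 1094 in G3 Tert-/- old and 2459 in G3 Tert-/- young kidneys. The list did not move as one: 7 of 15 fell, all of them matrix genes, and 4 of 15 estimates were positive without passing. Those were Thy1 at 0.60, Lum at 0.42, Pdgfra at 0.16 and Tcf21 at 0.14. The rest were negative without passing, namely Col5a1 at -0.55, Postn at -0.48, Pdgfrb at -0.17 and Fbln1 at -0.01.

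Immune cell markers went the other way. Of 6 tested B cell and plasma cell markers, 4 rose in the averaged comparison, with a median log2 fold change of 2.44. Their sums were 412 to 9624 normalized counts in G3 Tert-/- old and 282 to 939 in G3 Tert-/- young kidneys, which overlapped. In Tert+/+ they were 2973 to 9394 in old and 92.6 to 609 in young kidneys, with no overlap, so there too their part cannot be told apart from age. Of 10 macrophage and leukocyte markers, 1 rose (C1qb, a complement subunit, at 0.46), and 9 of 10 estimates were positive with a median of 0.40. Their sums were 1241 to 1926 in G3 Tert-/- old and 1036 to 1362 in G3 Tert-/- young kidneys, and 1212 to 1717 in Tert+/+ old and 818 to 1701 in Tert+/+ young kidneys. Tubule markers moved in both directions. Of 12 proximal tubule markers, 3 fell and 1 rose in the averaged comparison, with a median of -0.33. Of 7 loop and distal tubule markers, 1 fell and 2 rose, with a median of 0.12.

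Both calls also changed without a pair of young libraries, the highest of their groups in summed adipocyte markers. Without G3 Tert-/- young replicate 3 and Tert+/+ young replicate 5 together, 0 members passed in the averaged age comparison. Peg3 then had a log2 fold change of -0.49 (limma adjusted p = 0.0538) and Meg3 one of -0.69 (limma adjusted p = 0.10). The value of Peg3 with all libraries was -0.51, so its size moved little. With the summed adipocyte level as a covariate and all libraries kept, Peg3 was -0.51 (limma adjusted p = 0.0297) and Meg3 -0.76 (limma adjusted p = 0.0343). Both alternatives were chosen after the data had been seen.

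**Figure D2:**
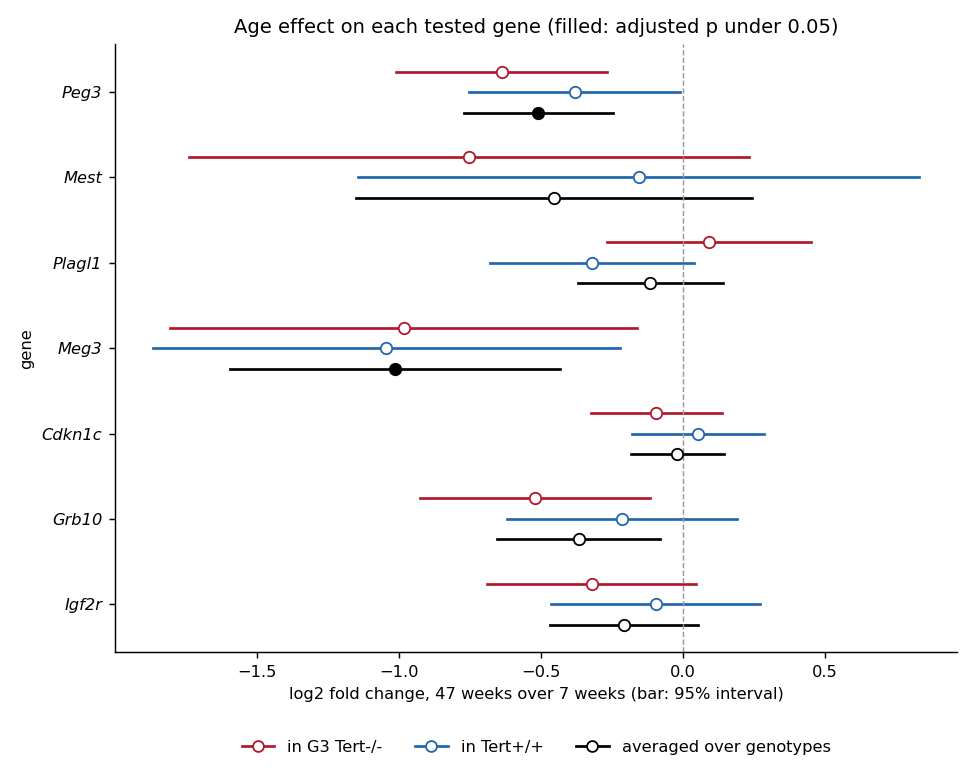
Log2 fold change of old over young kidneys (horizontal axis) for the 7 tested genes (rows), in G3 Tert-/-, in Tert+/+ and averaged over the genotypes, with 95% intervals from limma. The points with an adjusted p under 0.05 are filled, namely the averaged values of Peg3 at -0.51 and of Meg3 at -1.01.

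Among the paternally read genes, Peg3 encodes a zinc finger protein, and mice without it grow slowly. It lies on chromosome 7 from 6703892 to 6730431 on the minus strand (protein coding, GENCODE M21 on GRCm38, as for all coordinates below). Peg3 had 229, 192, 206, 228 and 208 normalized counts in G3 Tert-/- old kidneys, against 518, 278, 349, 213 and 369.8 in G3 Tert-/- young kidneys. Tert+/+ old kidneys held 227, 259, 282, 282 and 297, against 230.3, 379, 424, 372 and 379 in Tert+/+ young kidneys. In each genotype, 4 of 5 young kidneys were above every old one. The young kidney among the old ones was replicate 4 in G3 Tert-/- and replicate 1 in Tert+/+, and the second is a library that stood apart.

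The group means of Peg3 were 213 ± 15.7 in G3 Tert-/- old, 346 ± 114 in G3 Tert-/- young, 269 ± 27.3 in Tert+/+ old and 357 ± 73.9 in Tert+/+ young (SD, n = 5 each). Both young means were above both old means, in the order Tert+/+ young, G3 Tert-/- young, Tert+/+ old and G3 Tert-/- old, and the values of neighbours in that order overlapped. Averaged over genotypes, the log2 fold change was -0.51 with an SE of 0.13 and an adjusted p of 0.0202 (limma), with means of 241 ± 36.6 in old and 351 ± 90.9 in young kidneys (SD, n = 10 each). Without each library in turn it was -0.59 to -0.43 and passed all 20 times. In G3 Tert-/- alone it was -0.64 (SE 0.18, limma adjusted p = 0.0633), and in Tert+/+ alone -0.38 (SE 0.18, limma adjusted p = 0.447).

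The G3 Tert-/- value of Peg3 was near the threshold and crossed it under several settings. It passed in edgeR at -0.70 (adjusted p = 0.0341) and in DESeq2 at -0.70 (adjusted p = 0.0101). It also passed in limma without G3 Tert-/- young replicate 4, at -0.80 (adjusted p = 0.012), and without Tert+/+ young replicate 1, at -0.64 (adjusted p = 0.0228).

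Zim1, the imprinted gene next to Peg3 and read from the maternal copy (chromosome 7, 6671269 to 6696450, minus strand), was looked at after its values were seen. Its normalized counts were 14.8, 2.05, 9.35, 17.4 and 12.1 in G3 Tert-/- old kidneys, against 39.1, 20.6, 21.7, 16.6 and 26.8 in G3 Tert-/- young kidneys. For Tert+/+ the values were 12.4, 11.8, 13.6, 7.88 and 21.1 in old kidneys, against 6.89, 24.1, 30.3, 25.9 and 27.8 in young kidneys. G3 Tert-/- young replicate 4 and Tert+/+ young replicate 1, the low young kidneys for Peg3, were the lowest of their groups for Zim1 too. The averaged log2 fold change of Zim1 was -0.96 and did not pass (limma adjusted p = 0.0734).

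Dlk1 encodes a membrane protein of the Delta family that holds back adipocyte differentiation (chromosome 12, 109452823 to 109463336, plus strand, protein coding). It was close to the detection limit, with 12 reads over the 5 libraries of G3 Tert-/- old, 22 in G3 Tert-/- young, 4 in Tert+/+ old and 22 in Tert+/+ young. Per library it had 1.06, 1.02, 5.19, 0 and 5.05 normalized counts in G3 Tert-/- old kidneys, against 2.73, 3.91, 2.83, 5.81 and 5.36 in G3 Tert-/- young kidneys. In Tert+/+ it had 2.07, 0, 0.974, 0 and 1.11 in old kidneys, against 2.95, 5.79, 4.89, 0 and 6.73 in young kidneys. Most old values were under those of the young, with an old pair near 5 in G3 Tert-/- and a young library at 0 in Tert+/+.

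The mean difference of Dlk1 between old and young kidneys, averaged over genotypes, was -1.09 on the log2(normalized count + 1) scale. An exact two-sided permutation test within genotypes gave p = 0.0177, where the smallest possible p was 3.15e-05. This was 1 of 10 exact tests on H19 and Dlk1, and adjusted over those 10 it did not pass (exact permutation, adjusted p = 0.177). In G3 Tert-/- alone the difference was -0.86 (exact permutation p = 0.143), and in Tert+/+ alone it was -1.31 (exact permutation p = 0.0873), where the smallest possible p was 0.00794.

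Mest encodes a protein of the alpha/beta hydrolase fold and lies on chromosome 6 from 30723547 to 30748465 on the plus strand. It had 9.51, 10.2, 3.12, 1.02 and 2.02 normalized counts in G3 Tert-/- old kidneys, against 5.45, 10.8, 4.71, 9.97 and 7.5 in G3 Tert-/- young kidneys. Tert+/+ old kidneys held 7.25, 6.9, 2.92, 6.76 and 11.1, against 13.8, 11.6, 5.87, 2.77 and 7.57 in Tert+/+ young kidneys. All 4 groups overlapped, on 1 to 14 reads per library. The averaged log2 fold change was -0.45 with a 95% interval of -1.15 to 0.24 (limma adjusted p = 0.528). That interval holds both 0 and the value of Meg3 given next, so at this depth a difference of either size could not be told from the other. The end of Mest overlaps that of Copg2 on the opposite strand, and the labels' protocols give a strand-aware setting for counting.

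Plagl1 encodes a zinc finger transcription factor that regulates other genes of the imprinted network (chromosome 10, 13060504 to 13131694, plus strand). It had 51.8, 73.7, 80.0, 49.0 and 63.7 normalized counts in G3 Tert-/- old kidneys, against 57.2, 70.5, 49.9, 58.1 and 59.0 in G3 Tert-/- young kidneys. For Tert+/+ the values were 43.5, 43.3, 41.9, 54.1 and 57.9 in old kidneys, against 44.3, 66.5, 77.3, 65.6 and 51.3 in young kidneys. Means were 63.6 ± 13.4 in G3 Tert-/- old, 58.9 ± 7.38 in G3 Tert-/- young, 48.1 ± 7.3 in Tert+/+ old and 61.0 ± 13.1 in Tert+/+ young (SD, n = 5 each). The groups overlapped, and the 3 lowest values of all were in Tert+/+ old kidneys. The age estimates had opposite signs, at 0.09 in G3 Tert-/- (limma adjusted p = 0.86) and -0.32 in Tert+/+ (limma adjusted p = 0.527), and their difference of 0.41 did not pass (limma adjusted p = 0.819).

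Among the maternally read genes, Meg3 is a long non-coding RNA of the same imprinted region as Dlk1 (chromosome 12, 109541001 to 109571726, plus strand, annotated as lincRNA). Meg3 had 57.0, 30.7, 61.3, 25.5 and 82.8 normalized counts in G3 Tert-/- old kidneys, against 69.0, 68.5, 204, 74.7 and 101 in G3 Tert-/- young kidneys. In Tert+/+ it had 33.2, 33.5, 38.0, 55.2 and 18.9 in old kidneys, against 40.3, 65.6, 40.1, 86.0 and 194 in young kidneys. In G3 Tert-/-, 4 of 5 old kidneys were below every young one, and in Tert+/+, 4 of 5 old kidneys were too. The old exceptions were replicate 5 in G3 Tert-/- and replicate 4 in Tert+/+, and the highest values were those of 1 young library in each genotype.

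Means of Meg3 were 51.5 ± 23.5 in G3 Tert-/- old, 103 ± 57.9 in G3 Tert-/- young, 35.7 ± 13 in Tert+/+ old and 85.1 ± 63.6 in Tert+/+ young (SD, n = 5 each). The order from high to low was G3 Tert-/- young, Tert+/+ young, G3 Tert-/- old and Tert+/+ old, and neighbours in that order overlapped. Averaged over genotypes, means were 43.6 ± 19.8 in old and 94.3 ± 58.2 in young kidneys (SD, n = 10 each). The log2 fold change was -1.01 with an SE of 0.28 and an adjusted p of 0.0376 (limma). It was -0.98 in G3 Tert-/- (SE 0.40, limma adjusted p = 0.229) and -1.04 in Tert+/+ (SE 0.40, limma adjusted p = 0.312).

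Single libraries decided the call of Meg3. Without each library in turn the averaged log2 fold change was -1.11 to -0.83, and it passed 10 of 20 times. It did not pass without G3 Tert-/- old replicate 2 or 4, G3 Tert-/- young replicate 3 or 5, Tert+/+ old replicate 1, 2, 3 or 5, or Tert+/+ young replicate 4 or 5. In those fits the value was -1.03 to -0.83 with limma adjusted p between 0.0547 and 0.0793. Without both libraries that stood apart, it was -1.20 (limma adjusted p = 0.00899).

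In 3 of 4 groups the library with the most Meg3 was also the one with the most adipocyte marker RNA. The 9 markers summed to 2303, 416, 809, 401 and 4589 normalized counts in G3 Tert-/- old kidneys, against 437, 1184, 12295, 1590 and 2240.2 in G3 Tert-/- young kidneys. In Tert+/+ the sums were 490.1, 795, 546, 363 and 1204 in old kidneys, against 454, 778, 289, 1475 and 4339 in young kidneys. Of the 9 markers, 0 to 3 were at 0 in a library. The libraries with the highest sums, G3 Tert-/- young replicate 3, G3 Tert-/- old replicate 5 and Tert+/+ young replicate 5, also held the highest Meg3 of their groups. Tert+/+ old replicate 5 did not follow, with the highest sum of its group and the lowest Meg3.

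None of the 9 adipocyte markers passed in the averaged age comparison, and 8 of 9 estimates were negative with a median of -0.67. The library Tert+/+ young replicate 5 also carried the high Star value, and 3 of 10 listed adrenal cortex markers were in the table, summing to 1085 there and 239 to 572 elsewhere. None of 6 adrenal medulla markers was in the table. Without that library alone Meg3 was -0.83 (limma adjusted p = 0.0645).

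**Figure D3:**
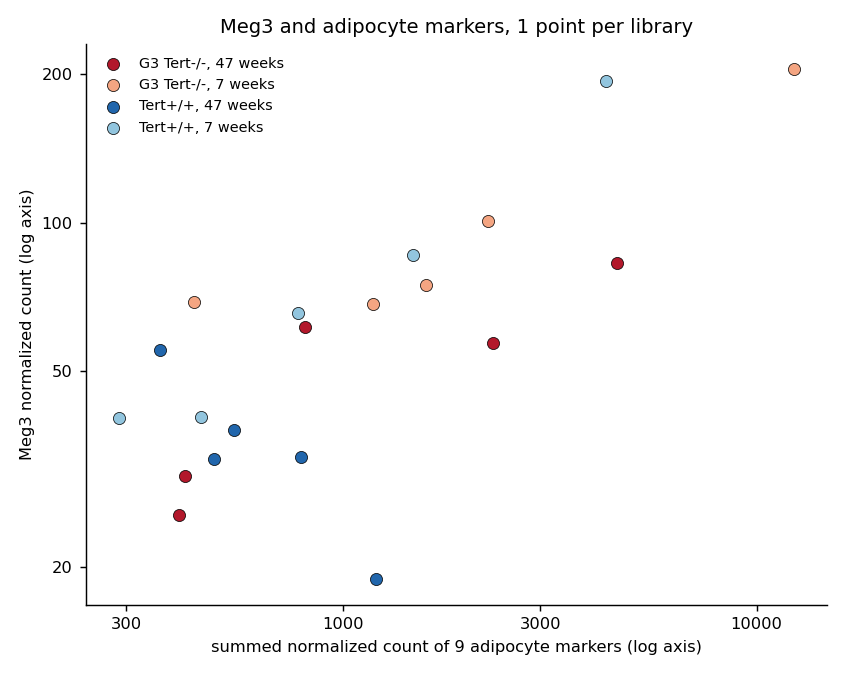
Meg3 normalized count (vertical axis, log scale) against the summed normalized count of 9 adipocyte markers (horizontal axis, log scale), with a point per library coloured by group. The 3 libraries with the highest marker sums, 12295, 4589 and 4339, had Meg3 counts of 204, 82.8 and 194.

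H19 is a long non-coding RNA next to Igf2 (chromosome 7, 142575529 to 142578143, minus strand, lincRNA), and it was barely detected. It had 3.17, 0, 1.04, 5.11 and 6.06 normalized counts in G3 Tert-/- old kidneys, against 0, 3.91, 5.65, 0.83 and 0 in G3 Tert-/- young kidneys. Tert+/+ old kidneys held 1.04, 0, 0, 0 and 4.45, against 0, 2.89, 1.96, 4.62 and 3.37 in Tert+/+ young kidneys. Values were at 0 in 7 libraries and rested on at most 6 reads in the others, with no separation between the groups. The averaged age difference was -0.21 on the log2(normalized count + 1) scale (exact permutation p = 0.692), and its other 4 exact tests gave p between 0.175 and 0.548. No difference was detectable at this depth.

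Cdkn1c encodes p57, an inhibitor of cyclin-dependent kinases that podocytes of the adult kidney express (chromosome 7, 143458339 to 143461050, minus strand). It had 299, 292, 272, 257 and 319 normalized counts in G3 Tert-/- old kidneys, against 267, 322, 377, 259 and 323 in G3 Tert-/- young kidneys. For Tert+/+ the values were 253, 273, 225, 268 and 235 in old kidneys, against 249, 216, 239, 226 and 280.2 in young kidneys. Old and young kidneys lay together in both genotypes, and the highest values were in G3 Tert-/-. The averaged log2 fold change with age was -0.02 with a 95% interval of -0.18 to 0.14 (limma adjusted p = 0.93), the narrowest interval of the 7 tested members. Of 9 podocyte markers, 2 fell with age in the same comparison, and all 9 estimates were negative with a median of -0.20.

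Grb10 encodes an adaptor protein that binds the insulin and IGF1 receptors and damps their signals (chromosome 11, 11930508 to 12038683, minus strand). It had 94.0, 108, 84.1, 88.9 and 83.9 normalized counts in G3 Tert-/- old kidneys, against 109, 131, 207, 105 and 128 in G3 Tert-/- young kidneys. In Tert+/+ it had 129.5, 94.6, 78.9, 64.2 and 112 in old kidneys, against 89.6, 112, 107, 90.6 and 153 in young kidneys. In G3 Tert-/-, 4 of 5 old kidneys were below every young one, and the fifth was between the 2 lowest young ones. Tert+/+ values overlapped widely, and the highest value of each genotype's young group was in the library highest in adipocyte markers.

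Averaged over genotypes, Grb10 was 93.9 ± 18.7 in old and 123 ± 35.3 in young kidneys (SD, n = 10 each). The log2 fold change was -0.37 with a 95% interval of -0.65 to -0.08, and it did not pass (limma adjusted p = 0.147). It was -0.52 in G3 Tert-/- (limma adjusted p = 0.192) and -0.22 in Tert+/+ (limma adjusted p = 0.744). No alternative setting and no left-out library brought it past the threshold in an age comparison.

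Igf2r encodes the receptor that carries IGF2 to lysosomes for breakdown (chromosome 17, 12682406 to 12769664, minus strand). It had 473, 347, 347, 337 and 269 normalized counts in G3 Tert-/- old kidneys, against 509, 471, 538, 265 and 461 in G3 Tert-/- young kidneys. Tert+/+ old kidneys held 454, 449, 398, 350.2 and 412, against 416, 336, 516, 388 and 585 in Tert+/+ young kidneys. In G3 Tert-/- the lowest value of all was in a young library, replicate 4, while 2 of the other young kidneys were above every old one. The averaged log2 fold change was -0.21 (limma adjusted p = 0.416), and it was -0.32 in G3 Tert-/- and -0.10 in Tert+/+. Airn, a non-coding RNA read from the opposite strand across part of Igf2r, was looked at after its values were seen, and had an averaged log2 fold change of -0.54 (limma adjusted p = 0.0512).

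Between the genotypes, 0 of 7 members passed at 47 weeks in limma, against 0.0957% of all genes, and 0 of 7 passed at 7 weeks, against 0% of all genes. The same counts of 0 were found with edgeR and with DESeq2. The gene nearest to a difference at 7 weeks was Cdkn1c, with means of 309.5 ± 47.9 in G3 Tert-/- young and 242 ± 24.7 in Tert+/+ young kidneys (SD, n = 5 each). Its log2 fold change was 0.35 with an SE of 0.11, and with an unadjusted p of 0.00518 the limma adjusted p was 0.435. At 47 weeks it was 288 ± 24 in G3 Tert-/- old and 251 ± 20.7 in Tert+/+ old kidneys, a log2 fold change of 0.20 (limma adjusted p = 0.797).

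It was the member with an unadjusted p under 0.05 at 7 weeks, where 10.7% of all genes had one. At 47 weeks that member was Plagl1, at 0.38 with an unadjusted limma p of 0.0384 (adjusted p = 0.735), and 6.58% of all genes had one. Peg3 had a log2 fold change of -0.34 at 47 weeks (limma adjusted p = 0.781) and -0.08 at 7 weeks (limma adjusted p = 0.88). Meg3 had 0.46 at 47 weeks (limma adjusted p = 0.877) and 0.40 at 7 weeks (limma adjusted p = 0.70). The age effect in G3 Tert-/- minus that in Tert+/+ passed for 0 of 7 members in limma, edgeR and DESeq2, against 0.00684% of all genes, and 0 of 7 had an unadjusted p under 0.05 in limma, against 6.22% of all genes. That difference was -0.26 for Peg3 (95% interval -0.78 to 0.27) and 0.06 for Meg3 (95% interval -1.10 to 1.22), so the fall was not shown to differ between the genotypes.

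Whether members varied together from library to library was asked with group means removed, over 21 pairs of the 7 tested members and all 20 libraries. None of the 21 pairs passed after adjustment over the pairs. By Pearson's r over all 20 libraries the largest value was that of Meg3 with Cdkn1c, with r of 0.606 (permutation p = 0.00908, adjusted p = 0.191) and Spearman's rho of 0.567 (permutation p = 0.0142, adjusted p = 0.149). Without the 2 libraries farthest from the median of Meg3, G3 Tert-/- young replicate 3 and Tert+/+ young replicate 5, r was 0.359. By Spearman's rho the largest was that of Grb10 with Igf2r, which had r of 0.548 (permutation p = 0.0276, adjusted p = 0.29) and rho of 0.574 (permutation p = 0.0137, adjusted p = 0.149), and r was 0.40 without its 2 farthest libraries. Without both libraries that stood apart, the largest r was 0.703, for Cdkn1c with Grb10, against 0.653 for Meg3 with Cdkn1c (permutation, adjusted p = 0.0923 for both).

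Joint variation of the 2 genes that fell with age was not detected. Meg3 with Peg3 had r of 0.144 (permutation p = 0.596, adjusted p = 0.772) and rho of -0.0015 (permutation p = 0.998, adjusted p = 0.998).

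**Figure D4:**
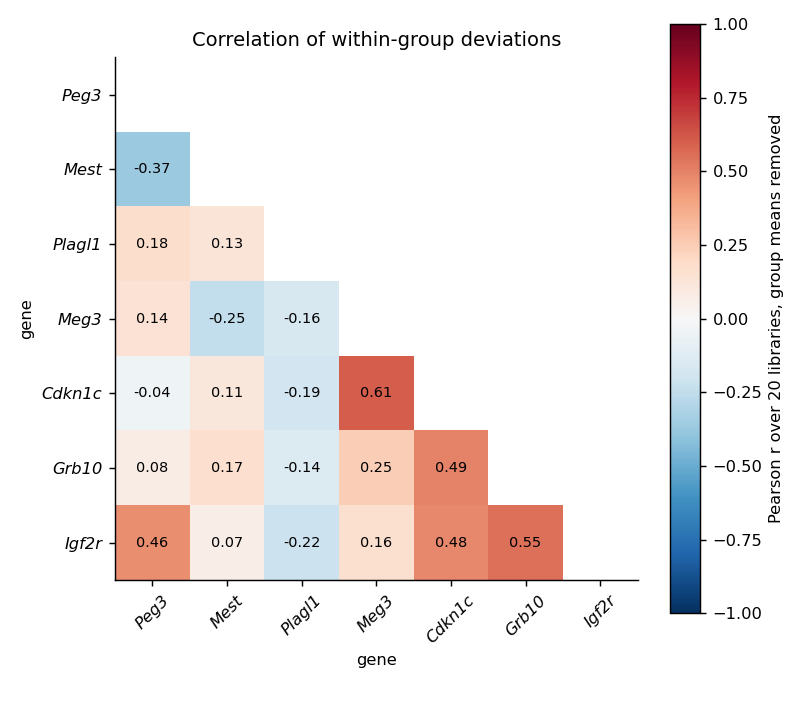
Pearson's r between each pair of the 7 tested genes, from deviations of log2(normalized count + 1) from the group mean over 20 libraries, with colour from negative to positive r and the value in each cell. The largest value is 0.606 for Meg3 with Cdkn1c, and no pair passed after adjustment over 21 pairs.

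For each member, the genes most like it in log2(normalized count + 1) over the 20 libraries are given as a description. They were sought among 12493 other tested genes with a regular symbol (no Gm number or Rik name). All points share library depth and composition, and group means were kept, so a shared age difference can add to r. Meg3 was nearest to Car3 (r = 0.865), Acaca (r = 0.846) and Fasn (r = 0.839), and the last 2 encode enzymes of fatty acid synthesis. Peg3 was nearest to Galnt1 (r = 0.846), Cdkl2 (r = 0.82) and Mettl26 (r = 0.789). Igf2r was nearest to Cul1 (r = 0.919), Slc17a5 (r = 0.852) and Hsd17b4 (r = 0.842). Grb10 was nearest to Coq9 (r = 0.792), Mapk4 (r = 0.791) and Thoc7 (r = 0.783), and Cdkn1c to B3galt2 (r = 0.801), Fas (r = 0.738) and Ecd (r = 0.728). The nearest genes of Mest reached r = 0.743 (Kcne1l), and those of Plagl1 r = 0.689 (Lyar).

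Other imprinted genes and the insulin-like growth factor pathway had medians near that of all genes. Of 53 other imprinted genes listed, 47 were in the table and 36 were tested, with a median averaged log2 fold change of 0.01 and 1 that passed. That gene was Dcn, a matrix proteoglycan that is also made by fibroblasts, at -0.53 (limma adjusted p = 0.0062). Of 24 tested genes of the insulin-like growth factor axis, 1 fell and 1 rose, with a median of 0.07. Igfals, which stabilizes circulating IGF complexes, fell by 0.73 (limma adjusted p = 0.00122), and Igf2bp1, an RNA-binding protein, rose by 0.65 (limma adjusted p = 0.0082).

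Some cell cycle and matrix genes fell in old kidneys, and most genes of these lists did not pass. For comparison, 2.43% of all tested genes fell. Of 14 tested genes of the juvenile growth programme other than the members, 1 fell, the chromatin enzyme gene Ezh2, at -0.48 (limma adjusted p = 0.0129), with a list median of -0.06. Of 24 tested cell cycle genes, 7 fell and 0 rose, with a median of -0.47, among them Prc1 at -1.26, Cenpf at -1.16 and Cdk1 at -1.07. The other 17 did not pass and 6 of 24 estimates were positive. Summed over the 29 cell cycle genes in the table, levels overlapped between the ages, at 2452 to 2954 in G3 Tert-/- old and 2301 to 3634 in G3 Tert-/- young kidneys. Ccnd1, which did not pass (0.08), made up the largest share of these sums, with means of 1568 in G3 Tert-/- old and 1583 in G3 Tert-/- young kidneys. Top2a, which fell, had means of 46.9 and 98.3 there, so the sums say little of the genes that fell. Of 15 fibroblast and matrix markers, 7 fell and 0 rose, with a median of -0.55, among them Col3a1 at -1.58, Col1a1 at -1.48 and Sparc at -1.03. None of 4 tested cyclin-dependent kinase inhibitor genes other than Cdkn1c passed. The lists were chosen with earlier results of these data known, and no list was tested as a whole.

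**Figure D5:**
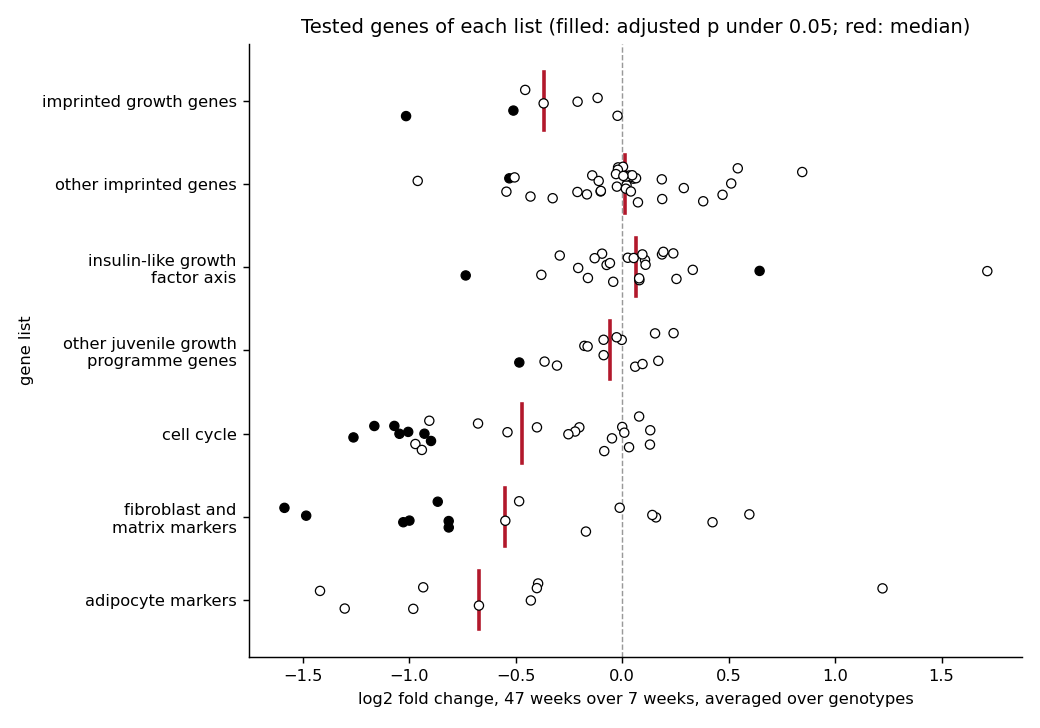
Averaged log2 fold change of old over young kidneys (horizontal axis) for each tested gene of 7 lists (rows), with a red mark at each list's median. The median is -0.37 for the members, -0.47 for cell cycle genes, -0.55 for fibroblast and matrix markers and 0.01 for the other imprinted genes.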

How the data were processed

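Polyadenylated RNA of whole kidneys from male mice, 20 libraries in 4 groups of 5, was sequenced from transcript 3′ ends with a stranded kit per the labels' protocols. Input was 300 ng, and RNA quality scores averaged 6.6 (range 5.0 to 7.5). These give no quality per library. Groups were taken from the labels, which name no batch, litter or pairing and do not state that each library is a separate mouse, so p-values measure the spread between libraries.

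The deposited signal is a normalized count: the authors divided the reads of each library by 1 factor. The table's name and values are the source of this reading. All values (100%) were whole multiples of a step per library, at a relative tolerance of 1e-06, so whole reads were recovered. Per the submitters' processing notes, the build is GRCm38 and the tools include HTSeq 0.6.1, DESeq2, TopHat2 2.0.10, SAMtools 0.1.19, Bowtie 1.0.0 and FastQC 0.11.7, with no roles given.

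Genes with a normalized count of 10 or more in at least 5 libraries were tested as log2(normalized count + 1) with limma 3.58.1 (R 4.3.3), with an intensity trend and 1 model of 4 group means. Folds are on that scale, which understates the change of low genes. Tests were two-sided, with Benjamini-Hochberg adjustment over 14630 genes, and an adjusted p under 0.05 passed. On recovered reads, edgeR 4.0.16 called 338 genes with age in G3 Tert-/-, 101 in Tert+/+ and 670 averaged, against 327, 95 and 657 in limma. DESeq2 1.42.0 was another alternative. H19 and Dlk1 had exact permutation tests, and pairs of members 100000 permutations within groups (NumPy 2.4.6, SciPy 1.17.1). The fit was tried on simulated data, with changes placed only in better expressed genes and with no outlying libraries. That trial does not cover genes as low as Mest or calls that turn on single libraries. Settings varied were the pseudocount, filter, scaling, tool, library weights, groups fitted and libraries left out. All members are named, with up to 4 passing genes of each list, the 3 genes nearest to a member and Tert. Members and lists were chosen with earlier results of these data known. Promoters are 250 bases before RefSeq starts (GRCm38.p6), and there was none for H19 or Cdkn1c.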

Additional observations from a re-analysis of the deposited data

Results flagged for a closer look

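A library far from the other 4 of its group was found in 5 of 36 sets of 5 libraries, 1 set for each of 9 members in each of 4 groups. For normally distributed values the cut-off used flags about 1 in 20, or 1.8. That rate need not hold for counts, least of all for those of H19 near 0, so 5 is not read as an excess. Meg3 was high in G3 Tert-/- young replicate 3, at 204 normalized counts, against 68.5 to 101 in the other 4. Grb10 was high in the same library, at 207, against 105 to 131 in the others, and this library had the highest adipocyte marker sum of all, 12295. Peg3 was low in Tert+/+ young replicate 1, at 230.3, against 372 to 424 in the others. That library also stood apart on the first principal component, at 67.5. Igf2r was low in G3 Tert-/- young replicate 4, at 265, against 461 to 538 in the others. H19 was high in Tert+/+ old replicate 5, at 4.45, against 0 to 1.04 in the others. What sets these libraries apart was not tested.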

How the results depend on the processing

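No paired analysis was possible because the labels give no replicate numbers that pair libraries. In G3 Tert-/-, members called with age were 0 in limma, 1 in edgeR, 1 in DESeq2, 2 with library weights (Peg3 and Igf2r), 1 without both libraries that stood apart and 0 to 1 with each library left out. Library weights called 1007 of all 14630 tested genes there, against 327 in limma, so the higher member count is not read as a result about the members. In Tert+/+ members called were 0, and 1 with library weights (Meg3), where 367 of all genes were called, against 95 in limma. Averaged over genotypes, members called were 2, against 657 of all genes. They were 0 without both young libraries highest in adipocyte markers, and 1 to 2 with each library left out. Exact tests of H19 and Dlk1 with p under 0.05 were 1, and 1 to 2 with each library left out.

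Signs turned for values close to 0 that did not pass. Mest with age in Tert+/+ was 0.12 with library weights and 0.038 without both libraries that stood apart. Mest between genotypes at 7 weeks was 0.0024 with a pseudocount of 0.5, 0.26 with library weights, 0.20 without both libraries that stood apart, 0.041 with the adipocyte covariate and 0.14 without both adipocyte-high libraries. Igf2r at 7 weeks was 0.10 with library weights and 0.016 without both adipocyte-high libraries, and its age value in Tert+/+ was 0.0062 without them. Cdkn1c averaged over genotypes was 0.024 with the covariate and 0.043 without those libraries, and Plagl1 at 7 weeks was 0.012 with the covariate. Without those libraries the Meg3 difference between the age effects was -0.021, and H19 averaged was 0.051.

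With each library left out, Mest ranged over -0.44 to 0.079 with age in Tert+/+ and -0.29 to 0.20 at 7 weeks. Igf2r ranged over -0.19 to 0.0062 with age in Tert+/+ and -0.11 to 0.17 at 7 weeks. Cdkn1c averaged ranged over -0.051 to 0.016, Grb10 at 47 weeks over -0.16 to 0.093, Peg3 at 7 weeks over -0.24 to 0.079 and Plagl1 at 7 weeks over -0.14 to 0.060. The Meg3 difference between age effects ranged over -0.30 to 0.34, H19 averaged over -0.42 to 0.0075 and Dlk1 at 7 weeks over -0.25 to 0.49. The cause was not tested.

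Over all genes, DESeq2 called 530 with age in G3 Tert-/- against 327 in limma, 211 against 95 in Tert+/+, 50 against 14 between genotypes at 47 weeks, 13 against 0 at 7 weeks and 8 against 1 for the difference of age effects. Library weights gave 1007, 367, 1491 averaged, 95, 1 and 2. Fits of only the 2 groups compared gave 53 in Tert+/+ and 6 at 47 weeks, and leaving out both libraries that stood apart gave 661 in G3 Tert-/- and 0 for the difference of age effects. H19, Dlk1 and Mest are limited by depth.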

Other observations

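Rian, a non-coding RNA of the region of Dlk1 and Meg3, was looked at after its values were seen. It had 16.9, 12.3, 23.9, 19.4 and 28.3 normalized counts in G3 Tert-/- old kidneys, against 27.2, 29.4, 34.9, 28.2 and 26.8 in G3 Tert-/- young kidneys. For Tert+/+ the values were 14.5, 15.8, 22.4, 27.0 and 15.6 in old kidneys, against 41.3, 15.4, 11.7, 24 and 34.5 in young kidneys. The old kidneys of G3 Tert-/- were low apart from replicate 5, and Tert+/+ values overlapped. Its averaged log2 fold change was -0.43 (limma adjusted p = 0.28).

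Airn, which crosses Igf2r from the opposite strand, had 52.8, 62.4, 68.6, 41.9 and 65.7 normalized counts in G3 Tert-/- old kidneys, against 158, 103, 98.9, 60.6 and 117 in G3 Tert-/- young kidneys. In Tert+/+ it had 77.7, 63.0, 49.7, 72.1 and 67.9 in old kidneys, against 83.7, 110, 94.9, 65.6 and 51.3 in young kidneys. Replicate 4 of G3 Tert-/- young, the low library for Igf2r, was the lowest of its group for Airn too. Tert+/+ young kidneys held no single order. Replicate 5 had the lowest Airn and the highest Igf2r (585), and replicate 2 the highest Airn and the lowest Igf2r (336). By contrast, replicate 3 was second highest of its group in both (Airn 94.9, Igf2r 516), and replicate 4 second lowest in both (65.6 and 388).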
